A study of Mus musculus with 12 samples.

Results

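The core genes of the circadian clock were described in mouse skin: Arntl, Clock, Per1, Per2, Per3, Cry1, Cry2, Nr1d1, Nr1d2 and Dbp. They were chosen by name, as every non-control probe of the 12 arrays that carried one of these 10 gene names. This gave 14 probes out of 39429 distinct non-control probes. All 14 passed the filter on dim probes, and the 10 genes stood among 20452 genes tested. Where a gene had 2 probes, the brighter probe represented it.

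Skin from male mice of the C57BL/6 strain, aged about 8 weeks, was compared on 12 Agilent 2-colour arrays, 3 mice to a group, which the labels call biological replicates. Incised skin carried a sutured incision of 1 cm. It was injected intradermally, 72 h after wounding, with the vehicle PBS (incised PBS) or with 100 nmol of promiR-29, a miR-29b mimic (incised mimic). Intact skin was injected with PBS (intact PBS) or with 100 nmol of antimiR-29, an inhibitor of miR-29 (intact antimiR). All skin was taken 24 h after the injection, so every array comes from injected skin and none from skin without an injection. Each array compared skin RNA, labelled with Cy5, with a universal mouse reference RNA, labelled with Cy3, and the dyes were not swapped. Values below are log2 ratios of skin over reference, which can be compared between arrays for a gene but not between genes. The clock hour of injection or harvest is not given in the sources used here. An effect of the hour at which a group was taken and an effect of its wound or injection therefore cannot be told apart.

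The clock is a feedback loop of transcription. The proteins of Arntl (also called Bmal1) and Clock bind E-box sequences together and switch on the Per and Cry genes, Nr1d1, Nr1d2 and Dbp, and PER and CRY proteins then hold that activator back. The receptors of Nr1d1 and Nr1d2 (REV-ERB alpha and beta) repress Arntl through ROR elements, and DBP acts through D-boxes, so that in a running clock Arntl peaks when Nr1d1 and Dbp are low. In skin, clocks run in keratinocytes, fibroblasts and hair follicles. Glucocorticoid hormone is a known inducer of Per1.

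The sequences below show where the elements of this loop lie in the members' own promoters. RefSeq promoter windows of GRCm38.p6, from 250 bases before to 50 bases after a transcript start, were matched by symbol. There were 13 such windows for 9 of the 10 genes, all but Per2. Each line is written 5′ to 3′ on the gene's strand with the motif in capitals. Both strands were searched for the E-box CACGTG, for the D-box TTATGTAA and for the ROR element in a short form, NNTAGGTCA, and in a longer form that holds it and opens with 2 A bases. The related E'-box CACGTT was added after the first 3 motifs had been searched, as was TTACGTAA, which no member window held. CACGTT reads AACGTG where it lies on the other strand.
Per1 E-box, 166 bases before the start, chr11:69098756-69098815, plus strand: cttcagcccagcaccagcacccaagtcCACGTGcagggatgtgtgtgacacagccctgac
Cry1 E-box, 60 bases before the start, chr10:85185082-85185141, minus strand: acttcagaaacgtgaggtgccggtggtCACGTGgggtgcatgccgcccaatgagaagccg
Cry2 E'-box, 166 bases before the start, chr2:92434203-92434262, minus strand: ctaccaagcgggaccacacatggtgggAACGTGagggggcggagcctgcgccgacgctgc
Nr1d1 E'-box, 28 bases before the start, chr11:98775378-98775432, minus strand: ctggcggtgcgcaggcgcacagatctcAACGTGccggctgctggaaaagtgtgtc
Per3 D-box, 205 bases before the start, chr4:151044837-151044896, minus strand: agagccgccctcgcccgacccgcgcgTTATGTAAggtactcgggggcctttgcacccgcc
Per3 D-box, 158 bases before the start, chr4:151044790-151044849, minus strand: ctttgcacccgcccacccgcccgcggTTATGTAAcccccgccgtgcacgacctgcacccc
Arntl ROR element, 27 bases after the start, chr7:113207528-113207557, plus strand: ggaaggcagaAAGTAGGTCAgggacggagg
Among all 32851 windows of this length, 7.15% held CACGTG, 4.68% CACGTT, 0.938% TTATGTAA, 2.58% NNTAGGTCA, 0.219% its longer form and 0.119% TTACGTAA. The Cry1 window held both E-box forms, the second of them 79 bases before the start. A match describes these letters in these windows and shows no binding.

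The agents injected were built on miR-29, whose mature forms share 1 seed, bases 2 to 8, in capitals here (RefSeq).
mmu-miR-29a-3p: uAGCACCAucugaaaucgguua
mmu-miR-29b-3p: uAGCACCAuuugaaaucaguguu
mmu-miR-29c-3p: uAGCACCAuuugaaaucgguua
Matches of this seed in the clock transcripts were not searched here.

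Some facts of the whole series bear on these values. Between 65.6% and 73.8% of probes were well above background in Cy5, the median signal over background ran from 3.67 to 5.00, and no spot was saturated. Intact PBS 3 stood furthest from its own group, with a median correlation of 0.921 with the other arrays of its group, against 0.939 or more for each other array with its own. A marker score here is the median, over a list's markers, of the log2 ratio minus the gene's mean over the 12 arrays. Intact PBS 2 had a hair follicle marker score of 3.14, where the other intact PBS arrays lay at -0.38 and -0.17. The 12 arrays lay on 3 slides of 4 arrays, scanned on 1 day. Slide 1 held the 3 incised PBS arrays and incised mimic 1, slide 2 held incised mimic 2 and 3 with intact PBS 1 and 2, and slide 3 held intact PBS 3 with the 3 intact antimiR arrays.

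The first comparison, incised PBS against intact PBS, asked how wounded and intact skin differed under the same vehicle. Nr1d1 and Cry2, a repressor in each arm of the loop, were lower in incised skin. All 10 genes had a log2 difference below 0, with a median of -0.48 and a range from -0.92 to -0.23, where the median over all genes tested was 0.00. Of the 10, 2 passed the test as lower and 0 as higher, beside 5.55% of all genes called lower, 9.87% called higher and 15.4% called either way. The direction was below 0 for each gene under all 15 alternative settings, except Per3 at 0.03 with slide as a fixed block.

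Nr1d1, the nuclear receptor that represses Arntl, had log2 ratios of 0.33, 0.77 and 0.45 on the incised PBS arrays and of 1.43, 1.34 and 1.52 on the intact PBS arrays. The highest incised PBS array lay well below the lowest intact PBS array. The log2 difference was -0.92 ± 0.19 (SE, n = 3 per group; 95% interval -1.34 to -0.50), 1.89-fold lower, with an adjusted p of 0.0107 in limma's fit over all 12 arrays. Its probe was the one with the tightest intact PBS group among the 10 genes, with an SD of 0.09. It lies on the minus strand of chromosome 11 within 98630526 to 98631028 in mm9, the build of the array files.

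Cry2, a cryptochrome that holds back the Clock and Arntl pair, had log2 ratios of 0.80, 1.00 and 0.74 on the incised PBS arrays. On the intact PBS arrays its log2 ratios were 1.39, 1.53 and 1.91. The groups did not overlap, and the log2 difference was -0.76 ± 0.13 (SE, n = 3 per group; 95% interval -1.06 to -0.47), 1.70-fold lower, with limma's adjusted p at 0.005. A second Cry2 probe lies in mm9 at chr2:92251417-92251476, apart from the first at chr2:92243807-92243866. It gave a smaller log2 difference of -0.37 ± 0.11, which also passed the test among all probes (adjusted p = 0.0466 in limma). Among the 14 probes, 3 were called lower, both for Cry2 and the one for Nr1d1, beside 5.81% of all probes.

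No slide held both incised PBS and intact PBS arrays, so a within-slide value of this comparison does not exist. With slide as a fixed block, neither call held. That fit reaches the comparison only through the mimic arrays, of which incised mimic 1 alone lay on slide 1 with incised PBS. Nr1d1 then had a log2 difference of -0.87 with limma's adjusted p at 0.382, and Cry2 one of -0.64 with an adjusted p of 0.235. In that fit 11 genes of the whole array were called, against 3155 without the block. On slide 2, incised mimic 2 and 3 together lay below intact PBS 1 and 2 by a log2 difference of -1.01 for Nr1d1 and -0.82 for Cry2. This comparison also differs in the mimic and was not tested. It is a part of the fixed-block difference and not a separate look. Each call was kept in all 12 fits that left out 1 array, with log2 differences from -1.04 to -0.82 for Nr1d1 and from -0.87 to -0.61 for Cry2.

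The period genes, which supply the PER proteins of the negative arm, lay lower in incised PBS skin without passing the test. Per1 had log2 ratios of 0.70, 0.72 and 0.35 on the incised PBS arrays and of 0.94, 1.79 and 1.30 on the intact PBS arrays. Its groups did not overlap, yet intact PBS 1 was close to the incised arrays while intact PBS 2 was far above them. The log2 difference was -0.75 ± 0.30 (limma's adjusted p = 0.114). A second and much dimmer Per1 probe, matched to the transcript AK081813, gave a log2 difference of -0.01 ± 0.14. Its skin signal was 2.64 times background, against 139 times for the first probe.

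Per2 had log2 ratios of -0.20, -0.22 and -0.69 on the incised PBS arrays and of -0.23, 0.19 and 0.82 on the intact PBS arrays. The groups overlapped because intact PBS 1 lay at the level of 2 incised arrays. The log2 difference of -0.63 ± 0.23 had an adjusted p of 0.0876 in limma. Without intact PBS 1 it was -0.88 and passed the test (limma's adjusted p = 0.0242). Per3, the period gene least needed for a running clock, had log2 ratios from -0.24 to 0.04 on the incised PBS arrays and from -0.05 to 0.52 on the intact PBS arrays, with a log2 difference of -0.28 ± 0.14 (limma's adjusted p = 0.189).

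Of the activators, Arntl had log2 ratios of 0.36, -0.10 and 0.61 on the incised PBS arrays and of 1.20, 0.71 and 0.69 on the intact PBS arrays. Every incised PBS array lay below every intact PBS array, though the gap was 0.61 against 0.69. The log2 difference was -0.57 ± 0.23 (limma's adjusted p = 0.112). Clock, its partner, had log2 ratios of 0.02, 0.35 and 0.17 in incised PBS and of 0.56, 0.31 and 0.60 in intact PBS. The groups overlapped at intact PBS 2. The log2 difference was -0.31 ± 0.11, with an adjusted p of 0.0696 in limma, and without intact PBS 2 it was -0.40 and passed the test (limma's adjusted p = 0.0314).

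Cry1, the other cryptochrome, had log2 ratios of -1.0, -0.70 and -0.78 on the incised PBS arrays and of -0.58, -0.57 and -0.17 on the intact PBS arrays. These groups did not overlap, with a log2 difference of -0.39 ± 0.17 (limma's adjusted p = 0.144). The log2 differences of Cry1 and Per2, whose probes are dim, and of Per1 and Nr1d2, whose probes are bright, depended on the processing. For Cry1 and Per2 they were -0.90 and -1.08 with the extraction program's processed signals and -0.06 and -0.04 with slide as a fixed block, and passed the test in neither. For Per1 they ran from -1.27 with slide as a fixed block to -0.38 with the deposited table, and for Nr1d2 from -0.74 with that block to -0.11 with Cy5 alone, and neither gene passed the test there. Nr1d2, the partner of Nr1d1, had log2 ratios of 1.52, 1.30 and 1.16 against 1.50, 1.66 and 1.78, which overlap, and a log2 difference of -0.32 ± 0.20 (limma's adjusted p = 0.304). Its second probe gave -0.39 ± 0.16 on the same scale. Dbp, an output of the loop and among the genes with the widest daily swing in many tissues, showed the smallest log2 difference of the 10, at -0.23 ± 0.21 (limma's adjusted p = 0.504; 95% interval -0.70 to 0.24). Its log2 ratios were 0.72, 0.71 and 0.08 in incised PBS and 0.69, 0.88 and 0.62 in intact PBS, so that incised PBS 3 alone lay apart. The second Dbp probe gave a log2 difference of -0.24 ± 0.23.

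In all, 5 of the 10 genes had groups that did not overlap, each lower in incised PBS (Arntl, Per1, Cry1, Cry2 and Nr1d1), beside 15.4% of all genes lower without overlap. An unadjusted p under 0.05 was reached by 7 of the 10, beside 31.4% of all genes. In the fit without slide the genes thus lay lower together, activators and repressors alike. The difference for single genes passed the test only for Nr1d1 and Cry2. With slide as a fixed block Per2, Cry1 and Per3 stood near 0, at log2 differences of -0.04, -0.06 and 0.03.

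**Figure D1:**
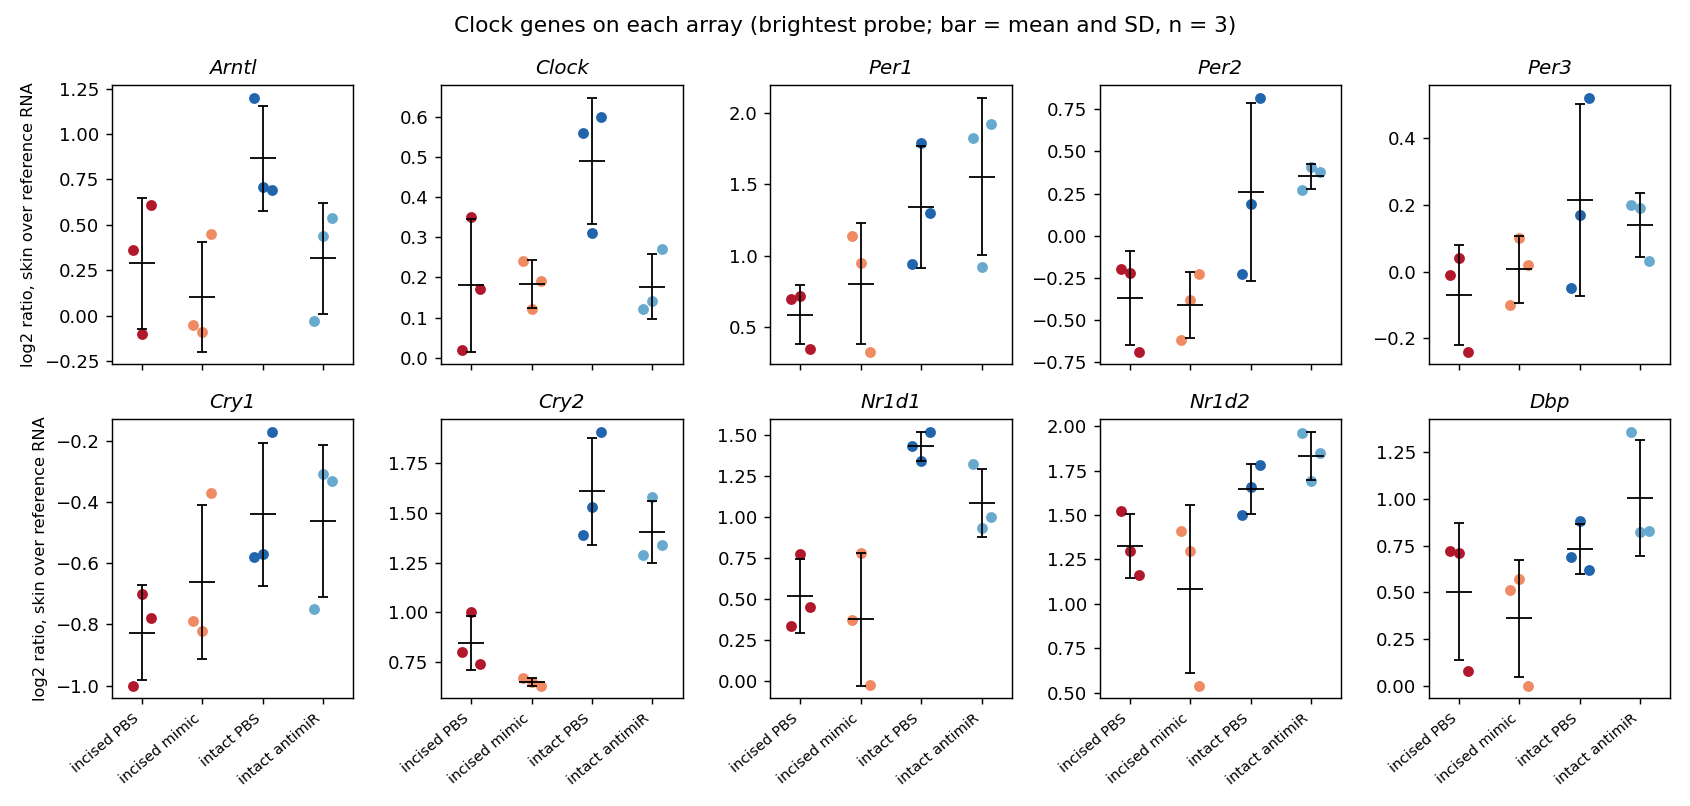
Log2 ratio of skin over reference RNA on each of the 12 arrays, for the brightest probe of each of the 10 clock genes; points are arrays, and the bar gives the group mean and SD (n = 3). Each panel has its own vertical scale. For Nr1d1 and Cry2 every incised PBS array lies below every intact PBS array, while Dbp overlaps.

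The same 2 genes were also the ones in which all 6 incised arrays, with PBS or mimic, lay below all 6 intact arrays, with PBS or antimiR. For Nr1d1 the highest incised log2 ratio was 0.78 (incised mimic 2) and the lowest intact log2 ratio was 0.93 (intact antimiR 2). For Cry2 the highest incised log2 ratio was 1.00 and the lowest intact one 1.29. These 6 against 6 arrays were set side by side after their values were seen and were not tested. Of all genes, 5.47% had all 6 incised arrays below all 6 intact arrays.

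Some markers of other cell types also moved with the wound, and their part in the clock values was not tested. Of 8 macrophage markers 4 were called higher in incised PBS, and their score ran from 0.21 to 0.42 there and from -0.50 to -0.16 in intact PBS. Of 7 neutrophil markers 2 were higher, and of 4 activated keratinocyte markers 1 was. Of 10 fibroblast markers 1 was higher and of 10 skeletal muscle markers 2 were. None of the markers of keratinocytes, endothelium, fat, hair follicle or T and NK cells was called. Beside these counts, 9.87% of all genes were called higher, so 1 of 10 for fibroblasts is near that share. In bulk skin, fewer cells of a type and less RNA per cell cannot be told apart.

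The second comparison, incised mimic against incised PBS, asked whether the miR-29 mimic moved the clock genes of wounded skin. None of the 10 passed the test, beside 0.592% of all genes called, and 0 of 10 had an unadjusted p under 0.05, beside 12.5% of all genes. The log2 differences ran from -0.24 (Nr1d2) to 0.21 (Per1), with a median of -0.09 beside 0.00 for all genes. Of all genes, 0.386% were called lower.

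For Nr1d1 the incised mimic log2 ratios were 0.37, 0.78 and -0.03, which spanned the PBS arrays. Its log2 difference was -0.14 ± 0.19 (95% interval -0.56 to 0.28), and the -0.92 found between incised and intact PBS lay outside that interval. Cry2 had mimic log2 ratios of 0.67, 0.65 and 0.63, all below the incised PBS arrays, and a log2 difference of -0.20 ± 0.13 (limma's adjusted p = 0.614; 95% interval -0.49 to 0.10). It was the only member whose brighter probe had groups that did not overlap, beside 11.7% of all genes lower without overlap. The dim Per1 probe was also lower without overlap, with a log2 difference of -0.28 ± 0.14.

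The other 9 genes overlapped between the groups. Arntl had mimic log2 ratios of -0.05, -0.09 and 0.45, Per1 of 1.14, 0.95 and 0.33, and Dbp of 0.51, 0.57 and 0.00. In each of these 3 genes incised mimic 3 stood apart from the other two. Their 95% intervals for the log2 difference were -0.69 to 0.32, -0.45 to 0.88 and -0.61 to 0.33. The interval was narrowest for Clock, at -0.22 to 0.24, with mimic log2 ratios of 0.24, 0.12 and 0.19.

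Of the markers, 3 of 10 for fibroblasts and 3 of 10 for skeletal muscle were called lower with the mimic and 1 of 7 for neutrophils higher. Of all genes, 0.386% were called lower and 42 of 20452 higher. The fibroblast score ran from -0.75 to -0.36 with the mimic and from 0.17 to 0.36 with PBS. Their part in the clock values was not tested.

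The third comparison, intact antimiR against intact PBS, asked the same of the inhibitor in intact skin. It shares the intact PBS arrays with the first comparison, so a low or high intact PBS array enters both. None of the 10 members passed the test, beside 9.72% of all genes called and 4.47% called lower. An unadjusted p under 0.05 was reached by 2 of the 10, Arntl and Clock, beside 24.1% of all genes.

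Arntl had antimiR log2 ratios of -0.03, 0.44 and 0.54, each below the intact PBS values of 0.69 to 1.20. The log2 difference was -0.55 ± 0.23 (limma's adjusted p = 0.17; 95% interval -1.05 to -0.04). Clock had antimiR log2 ratios of 0.12, 0.14 and 0.27, against 0.31 to 0.60 with PBS, and a log2 difference of -0.31 ± 0.11 (limma's adjusted p = 0.0897). Without intact PBS 2 the log2 difference of Clock was -0.41 and passed the test (limma's adjusted p = 0.0429), so that 1 of the 10 was then called. Both activators, then, lay lower without overlap in antimiR skin, and neither passed the test with all arrays.

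The repressor Nr1d1 was the remaining gene without overlap. Its antimiR log2 ratios of 1.32, 0.93 and 1.00 all lay below the 1.34 to 1.52 of intact PBS, with a log2 difference of -0.35 ± 0.19 (limma's adjusted p = 0.301). These 3 genes of 10 stand beside 11.7% of all genes lower without overlap. The other members overlapped. Dbp, at 1.36, 0.82 and 0.83 with the antimiR, had a log2 difference of 0.27 ± 0.21, and Nr1d2, at 1.96, 1.69 and 1.85, one of 0.19 ± 0.20. Per1, at 1.82, 0.92 and 1.92 with the antimiR, had a log2 difference of 0.21 ± 0.30. The log2 differences of Per2, Per3, Cry1 and Cry2 were 0.09, -0.07, -0.02 and -0.20.

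Slide 3 held the 3 antimiR arrays with intact PBS 3 alone, the array furthest from its group. Against it the antimiR arrays together had log2 differences of -0.37 for Arntl, -0.43 for Clock and -0.44 for Nr1d1. These did not stand out on that slide, where Cry2 was at -0.51, Per2 at -0.47, Per3 at -0.38, Cry1 at -0.29, Nr1d2 at 0.06, Per1 at 0.25 and Dbp at 0.38 on the same scale. Of the markers in this comparison, 2 of 10 for skeletal muscle were called lower, and 2 of 8 for macrophages and 2 of 7 for neutrophils higher. Of all genes, 4.47% were called lower and 1072 of 20452 higher. The part of these markers was not tested.

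**Figure D2:**
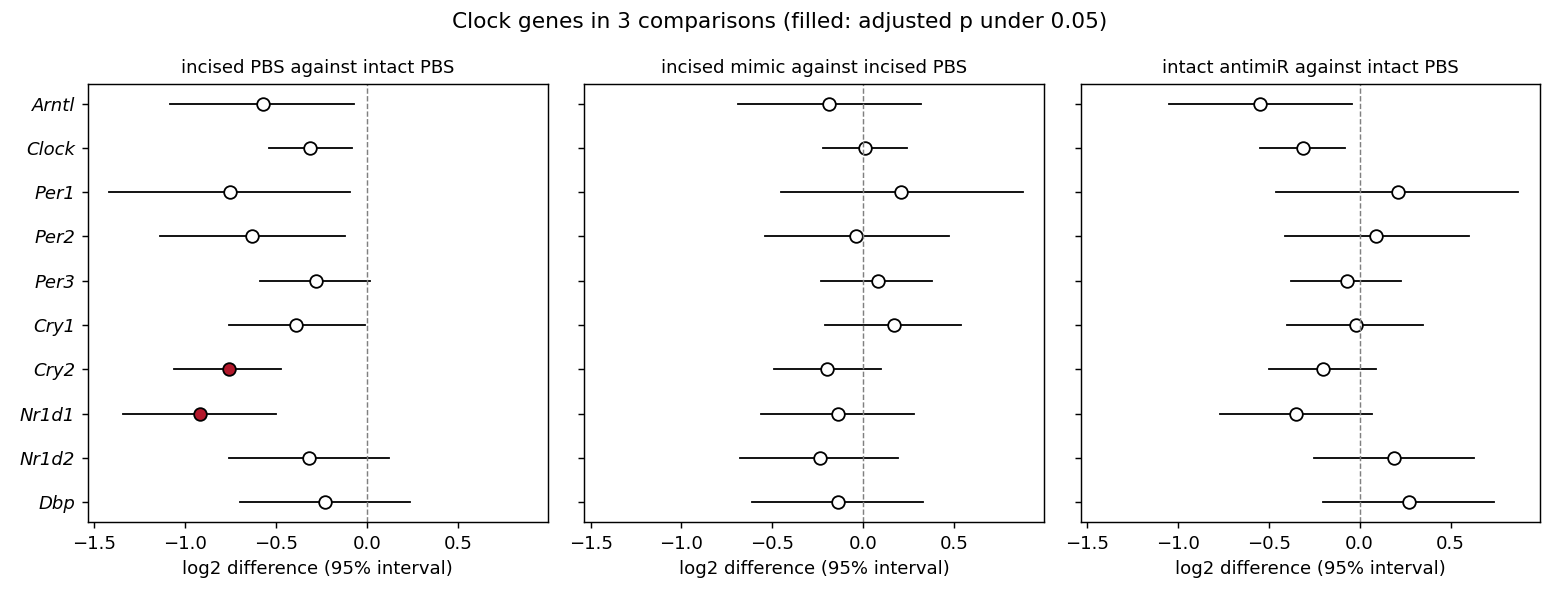
Log2 difference between groups (horizontal axis) for each of the 10 clock genes in the 3 comparisons; lines are 95% intervals from the limma fit, and filled points have an adjusted p under 0.05. Only Nr1d1 (-0.92) and Cry2 (-0.76) are filled, in incised PBS against intact PBS.

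The hour of harvest has no label, and the arrays within a group were therefore read side by side. In 2 groups the array with the highest Arntl had the lowest Dbp. Incised PBS 3 had the highest Arntl log2 ratio of its group, at 0.61, and the lowest Dbp, Nr1d2, Per1, Per2, Per3 and Cry2. Its Nr1d1, Cry1 and Clock lay between those of the other two. Incised mimic 3 had the highest Arntl, at 0.45, and the lowest Dbp, Nr1d1, Nr1d2, Per1 and Cry2, but also the highest Per2 and Cry1.

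In intact antimiR, array 1 had the lowest Arntl log2 ratio, at -0.03, and the highest Dbp, Nr1d1, Nr1d2 and Per3, but also the lowest Per2, Cry1, Cry2 and Clock. Intact PBS 1 had the highest Arntl log2 ratio of its group, at 1.20, and the lowest Per1, Per2, Per3, Cry1, Cry2 and Nr1d2, while its Dbp, Nr1d1 and Clock lay between those of the other two. Intact PBS 3 had the lowest Arntl, at 0.69 beside 0.71 on intact PBS 2. It had the highest Nr1d1, Nr1d2, Per2, Per3, Cry1 and Cry2, but also the highest Clock and the lowest Dbp. In each group, then, an array at one end for Arntl was at the other end for several Per, Cry or Nr1d genes. These ends were picked after the values were seen, and the members that took part differed between groups. Intact antimiR 3, with the highest Arntl of its group, also had the highest Per1 and Clock, and was the lowest only for Per3. No share of all genes was taken for such an order. The order rests on 3 arrays a group and is a description.

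The spread within groups differed between members. Pooled over the 4 groups, the within-group SD of the log2 ratio was 0.42 for Per1, at percentile 93.5 of all genes tested, and 0.13 for Clock, at percentile 36.7. The median over all genes was 0.15. Arntl (0.31), Per2 (0.32), Dbp (0.29), Nr1d2 (0.27) and Nr1d1 (0.26) had within-group SDs between percentiles 81.1 and 87.4. Cry1 was at percentile 75.9, Per3 at 63.4 and Cry2 at 60.3. Clock was thus the steadiest of the 10, and Per1, at its brighter probe, was the most variable. The dimmer Per1 probe had SDs within single groups from 0.08 to 0.29. The cause of these spreads was not tested.

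**Figure D3:**
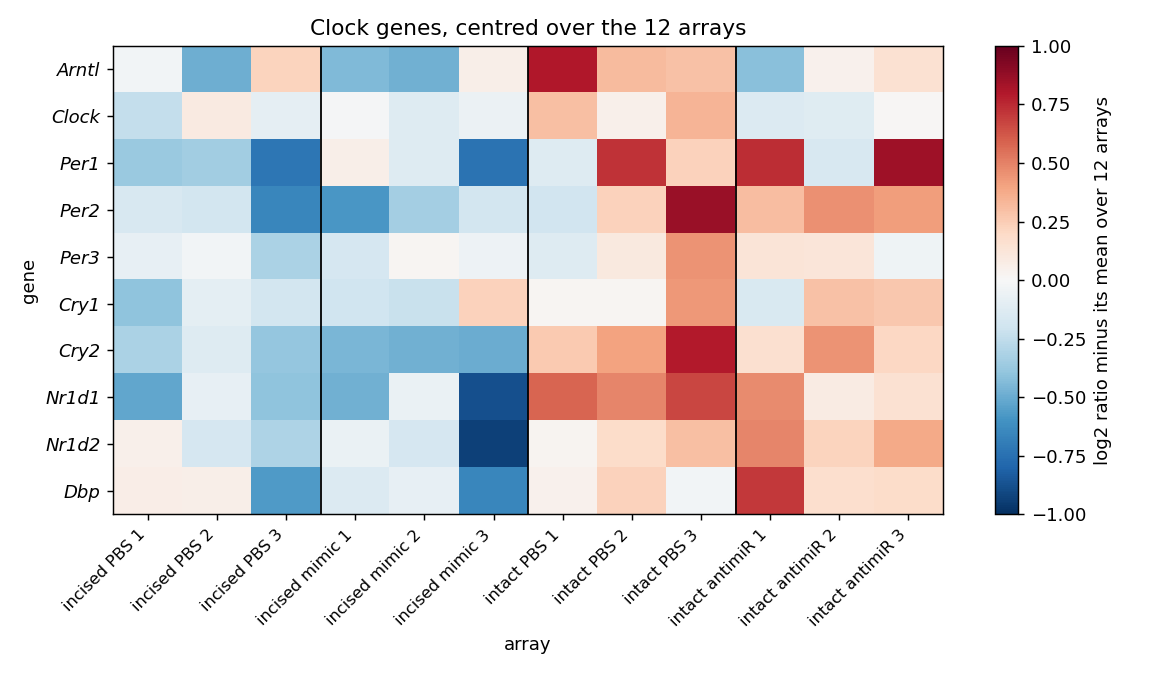
Log2 ratio of each clock gene minus its mean over the 12 arrays, shown as colour for each gene (row) and array (column), with black lines between the groups. Incised mimic 3 is low for Per1, Nr1d1, Nr1d2 and Dbp, and intact antimiR 1 is high for Per1 and Dbp while low for Arntl.

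Other genes that run with or set the clock were read from a list of 28, of which 27 were measured. In incised PBS against intact PBS, 3 were called lower and 1 higher, beside 5.55% and 9.87% of all genes, with a median log2 difference of -0.21, and 21 of the 27 lay below 0. Usp2, a deubiquitinase whose RNA cycles in many tissues, had log2 ratios of 2.39, 2.26 and 2.37 on the incised PBS arrays and of 2.74, 3.48 and 3.37 on the intact PBS arrays. The groups did not overlap, with a log2 difference of -0.85 ± 0.17 (limma's adjusted p = 0.00968), and the call held without any 1 array. With Cy5 alone it missed the test, at -0.73 on the log2 scale with limma's adjusted p at 0.171. It also missed the test with only the 2 compared groups (limma's adjusted p = 0.0557).

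Nampt, the enzyme of NAD salvage under clock control, fell by 0.56 ± 0.16 on the log2 scale (limma's adjusted p = 0.0416). Its call was kept in 9 of 15 alternatives. It was kept in 5 of 12 fits without 1 array, with log2 differences from -0.66 to -0.39. Gsk3b, a kinase of clock proteins, was called higher at a log2 difference of 0.42 ± 0.11, but its probe nearest the 3′ end gave -0.25, and it was kept in 7 of 12 fits without 1 array. The E-box repressor Bhlhe40 had a log2 difference of 0.36 ± 0.12 and Arntl2 one of -0.38 ± 0.12, neither past the test.

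With the mimic none of the 27 passed the test, 4 had an unadjusted p under 0.05, beside 12.5% of all genes, and the median log2 difference was -0.03. Usp2 had the smallest p of the list there too, at a log2 difference of -0.56 ± 0.17 (limma's adjusted p = 0.191). With the antimiR 2 were called lower and 0 higher, beside 4.47% of all genes called lower, and the median was 0.09. Rora, the activator that opposes Nr1d1 at ROR elements, fell by 0.78 ± 0.21 on the log2 scale (limma's adjusted p = 0.0378). Its log2 ratios were 2.86, 2.69 and 2.11 with PBS and 1.59, 1.72 and 2.01 with the antimiR. It was kept in 4 of 12 fits without 1 array. Gsk3b was the other, at -0.47 ± 0.11 (limma's adjusted p = 0.0253), and again its probe nearest the 3′ end gave the opposite sign, 0.19.

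Because glucocorticoids induce Per1, 15 genes known to rise with the hormone were read beside the clock, all of them measured and none a member. The arrays measure RNA and not the hormone, whose part in the clock values was not tested. In incised PBS against intact PBS 5 of 15 were called lower and 0 higher, beside 5.55% and 9.87% of all genes, with a median log2 difference of -0.60. Of the 15, 12 lay below 0 and 3 above, the highest at a log2 difference of 1.6. Dusp1, a phosphatase of MAP kinases, had log2 ratios of -0.34, -0.52 and -0.59 in incised PBS and of 1.47, 0.71 and 0.92 in intact PBS, and fell by 1.51 ± 0.21 on the log2 scale (limma's adjusted p = 0.00187). Errfi1, an inhibitor of the EGF receptor, and Nfkbia, the inhibitor of NF-kappaB, had log2 differences of -1.10 ± 0.23 and -0.60 ± 0.11 (limma's adjusted p of 0.0114 and 0.00686). These 3 calls held without any 1 array, though Errfi1 missed the test with only the 2 compared groups (limma's adjusted p = 0.0555).

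Klf9, a zinc finger repressor, had log2 ratios of 0.57, 0.40 and 0.48 in incised PBS, below the 0.67, 1.81 and 1.78 of intact PBS, and Tsc22d3 (GILZ), which damps inflammation, had 1.41, 1.30 and 1.18 below 1.65, 2.92 and 2.66. Their log2 differences of -0.94 ± 0.27 and -1.11 ± 0.33 passed the test narrowly (limma's adjusted p of 0.0378 and 0.0451). The calls were kept in 4 and 3 of the 12 fits without 1 array, where the log2 differences ran from -1.31 to -0.74 and from -1.49 to -0.86. In both genes intact PBS 1 was the lowest of its group, as it was for Per1 and Fkbp5. For Dusp1 and Nfkbia, though, it was the highest, and for Errfi1 it lay between the others. Fkbp5, a co-chaperone of the receptor, had a log2 difference of -1.13 ± 0.36 (limma's adjusted p = 0.0565).

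With the mimic none of the 15 passed the test, 1 had an unadjusted p under 0.05 (Lcn2, at a log2 difference of 1.57 ± 0.48), beside 12.5% of all genes, and the median was -0.05. With the antimiR 2 were called lower, beside 4.47% of all genes, Cdkn1a at -0.82 ± 0.18 and Errfi1 at -0.88 ± 0.23 on the log2 scale (limma's adjusted p of 0.0178 and 0.0378), and the median was -0.13. Cdkn1a was kept in 9 and Errfi1 in 5 of the 12 fits without 1 array. With slide as a fixed block, none of the calls in these 2 lists held in either comparison. In wounding the log2 differences in that fit were larger for Dusp1 (-1.75), Errfi1 (-1.41), Nfkbia (-0.80) and Usp2 (-0.91). With the antimiR they were smaller for Rora (-0.34) and Errfi1 (-0.64), where that fit sets the antimiR arrays against intact PBS 3 alone.

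**Figure D4:**
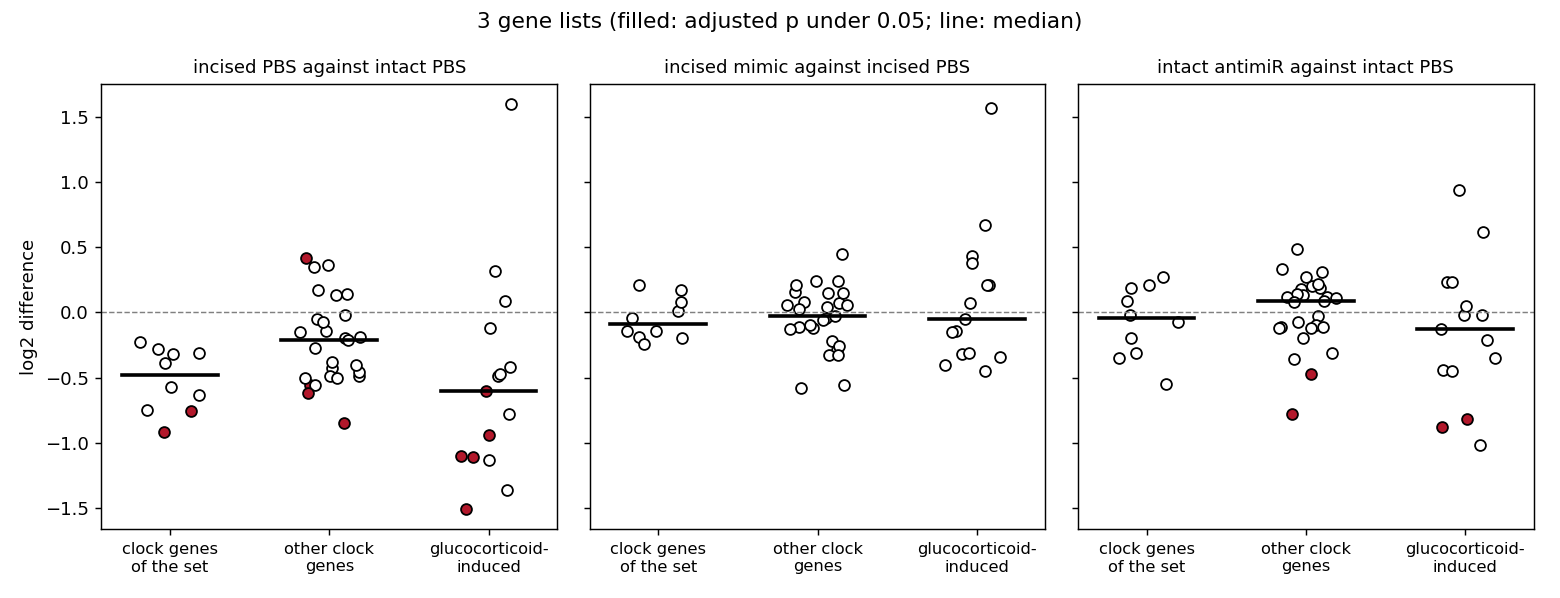
Log2 difference of each gene (points) in 3 lists, the 10 clock genes, the 27 other clock genes and the 15 glucocorticoid-induced genes, for the 3 comparisons; the line is the list's median and filled points have an adjusted p under 0.05. In incised PBS against intact PBS the medians are -0.48, -0.21 and -0.60.

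The genes most like Arntl over the 12 arrays, by Pearson's r among 15258 named genes with a value on every array, were Osbpl1a (0.912), Rdh13 (0.897), Mob4 (0.887), Cfap298 (0.887) and Pard6b (0.869). Among the same genes, without the members, those most like Dbp were Rhox2e (0.912), Ifnl3 (0.901), Tnxb (0.887), Dennd6b (0.873) and Tmem116 (0.856). None of these 10 belongs to either clock list. The points share groups and slides, so r also carries the differences between groups.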

How the data were processed

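The scanner files hold spot intensity and local background intensity for Cy5 and Cy3, extracted with Agilent Feature Extraction 11.5.1.1 per the file headers, along with that program's processed intensity. A log2 table, which the authors deposited for the whole series, served as an alternative. From the mean intensities, background was corrected with limma 3.58.1 (R 4.3.3) by normexp with an offset of 50, followed by loess within arrays with controls at weight 0. Outlier spots were dropped, and spots were averaged by probe. The filter asked for a gene name and a Cy5 signal flagged well above background on 3 or more of the 12 arrays, which left 27151 probes. All 12 arrays were fitted with lmFit and eBayes, a fit also tested on simulated data, and a gene was called where its p, adjusted by Benjamini-Hochberg over 20452 genes, was under 0.05. Where an array lacked a value, the fit used the others; no member lacked one. Errors after log2 differences are standard errors, and tests are 2-sided. The number of arrays limits the precision. Positions are mm9, except promoters.

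Named were all members and their probes, up to 6 genes of smallest p per list and comparison, and the 5 genes most like Arntl and Dbp; 1 gene counted in a list is not reported here. The members and lists were chosen with earlier results of these data known. The 15 alternatives covered background, scaling, filter, probe choice, blocks and the fit, and each of 12 arrays was left out in turn.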

Additional observations from a re-analysis of the deposited data

How the results depend on the processing

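The number of clock genes called in incised PBS against intact PBS was 2 under 14 of 15 alternatives and 0 with slide as a fixed block, and 2 to 3 when 1 array was left out (3 without intact PBS 1, adding Per2, or without intact PBS 2, adding Clock). It was 0 throughout for the mimic, and for the antimiR 0 under all 15 and 0 to 1 without 1 array. Replicate numbers do not pair the mice. Correlations of same-numbered deviations were 0.12, -0.25 and -0.44 for wounding, 0.29, -0.34 and -0.39 for the mimic and 0.13, -0.11 and 0.06 for the antimiR. With the replicate block 2, 0 and 0 clock genes were called in the 3 comparisons, and 77 of all genes with the mimic against 121. Calls over all genes also moved by more than 1.5 times elsewhere. For wounding, 3155 became 1739 with Cy5 alone, 2062 with the deposited table, 1364 with only the 2 groups and 11 with slide as a fixed block, and 1693 to 3081 without 1 array. For the mimic, 121 became 38 with processed signals, 45 with Cy5 alone, 8 with the deposited table, 438 with only the 2 groups, 0 and 59 with slide as a fixed and random block, 71 with a robust trend fit, and 1 to 246 without 1 array. For the antimiR, 1987 became 1199 with Cy5 alone and 537 with only the 2 groups, and 1090 and 1323 without antimiR 2 or 3.

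These log2 differences changed sign, among them Gsk3b in both comparisons where it was called, and neither Nr1d1 nor Cry2 for wounding. With slide as a fixed block, Per3 was 0.03 for wounding. For the mimic that fit sets incised mimic 1 alone against the incised PBS arrays. Per3 was then -0.03, Nr1d2 0.08 and Dbp 0.01. For the antimiR it sets the antimiR arrays against intact PBS 3 alone, and Per2 was -0.47. With processed signals, mimic values were -0.01 (Clock) and 0.07 (Per2), and antimiR Per3 was 0.13. With the deposited table, mimic values were -0.01 (Clock), -0.24 (Per1) and 0.07 (Per2), and antimiR values 0.13 (Per3) and -0.14 (Csnk1d). With Cy5 alone, Per2 was 0.03 for the mimic and -0.06 for the antimiR. Without background correction, antimiR Per3 was 0.03 and Cry1 0.01. With the mean over probes, mimic Per1 was -0.03 and antimiR Csnk1d -0.05. With the probe nearest the 3′ end, Gsk3b was -0.25 for wounding and 0.19 for the antimiR. Leaving out 1 array gave ranges across 0 for the mimic in Clock (-0.07 to 0.09), Per2 (-0.20 to 0.07), Per3 (-0.01 to 0.13), Nr1d1 (-0.35 to 0.06), Nr1d2 (-0.41 to 0.03) and Dbp (-0.35 to 0.04), and for the antimiR in Per2 (-0.15 to 0.37), Per3 (-0.20 to 0.09) and Cry1 (-0.10 to 0.12). The cause of these changes was not tested. Signal over background limits Cry1, Per3 and Per2, whose probes lay at 2.25, 3.13 and 4.30 times background.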
